A study of Mus musculus with 10 samples.

Results

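The collagen genes are the protein-coding genes of chromosomes 1 to 19 whose RefSeq symbol has the form Col, a number, a and a number. Of 20661 protein-coding genes there, 42 are members. They encode the alpha chains that wind into the triple helices of the extracellular matrix. Fibrillar collagens (11 members, among them Col1a1, Col1a2, Col2a1 and Col3a1) build the banded fibrils of connective tissue. The other 31 members form sheets and networks, as the basement membrane chains Col4a1 and Col4a2 do, beaded filaments, fibril-associated collagens (FACIT) that decorate fibrils, transmembrane collagens, multiplexins and a few further types. In the embryonic brain, collagens are known mainly as products of the meninges and the vessel walls, whose cells lay down the basement membrane, while neural progenitors make little of the fibrillar types.

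Neural stem and progenitor cells had been taken from E13.5 mouse forebrain and grown as early-passage cultures with EGF and FGF (20 ng/ml of each). Control plates received water for 24 h and treated plates 10 mM crotonate, from which cells make crotonyl-CoA. Native chromatin immunoprecipitation, done without a crosslink, was followed by sequencing for the promoter mark H3K4me3, for 2 acylations linked with active genes, H3K9cr (crotonylation) and H3K27ac (acetylation), and for H3K27me3, which Polycomb complexes set at silenced genes. Each mark and treatment had 1 library and 1 peak list, so the 8 lists hold no replicate error, no test was possible, and the difference between treatments has no replicate check. How many embryos, and of which strain, the cultures came from was not given. The antibody vendor was labelled Abcam in control and PTM Biolab in crotonate for H3K4me3, and Active Motif and PTM Biolab for H3K27me3, with the same catalogue numbers, so vendor label and treatment cannot be told apart.

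The window of a gene was its body plus 5 kb either side, and a gene carried a mark where a peak overlapped that window by at least 1 bp. A gene is said to have gained a mark when the crotonate list alone had such a peak, and to have lost it when the control list alone had one. Both words describe lists, and a peak that narrowly missed the calling limit in the other library also counts. Collagen bodies were long, with a median of 110 kb against 17.5 kb for all genes, and longer windows hold more peaks. The windows of 3 pairs overlap and can share peaks (Col4a1 with Col4a2, Col4a3 with Col4a4, Col9a1 with Col19a1), and in each list 4 to 6 of the peaks counted lay at the start of another gene. Lists differed in length, with 17322 control and 18001 crotonate peaks for H3K4me3 and 31905 and 32666 for H3K9cr. H3K27ac had 52922 and 59868 and H3K27me3 26031 and 34707, and read depth is unknown. The labelled cell type was checked at its marker promoters, and 10 of 10 neural stem and progenitor genes had H3K4me3, H3K9cr and H3K27ac at the annotated start in both treatments. H3K27me3 was also at 4 of these 10 starts in control and 2 in crotonate. Of 10 mesenchymal and meningeal markers, 9 had H3K27me3 there in both treatments and H3K27ac was found at 2 in control and 3 in crotonate, the receptor gene Pdgfra being the addition. H3K4me3 was at 8 and 7 of these markers and H3K9cr at 8 and 8, so these 2 marks did not separate the lists. H3K27ac was also found at 2 and 2 of 6 mural, 1 and 2 of 6 endothelial (Cdh5 added), and 2 and 2 of 6 microglial markers, and the part of such cells in the collagen peaks was not tested.

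The promoters of 6 genes are printed because these genes changed a mark at the start or, for Col3a1, had no peak in any list, and because they span the CpG content of the family. Each run is the 250 bases before the annotated start in RefSeq (GRCm38.p6), 5′ to 3′ in the direction of transcription, with every CpG dinucleotide in capitals.
Col5a1, chr2:27886175-27886424, plus strand: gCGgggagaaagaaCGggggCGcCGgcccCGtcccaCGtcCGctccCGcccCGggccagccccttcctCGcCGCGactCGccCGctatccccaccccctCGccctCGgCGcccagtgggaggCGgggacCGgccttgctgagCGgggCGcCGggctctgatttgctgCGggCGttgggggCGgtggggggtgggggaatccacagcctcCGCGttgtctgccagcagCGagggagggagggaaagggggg
Col1a2, chr6:4505368-4505617, plus strand: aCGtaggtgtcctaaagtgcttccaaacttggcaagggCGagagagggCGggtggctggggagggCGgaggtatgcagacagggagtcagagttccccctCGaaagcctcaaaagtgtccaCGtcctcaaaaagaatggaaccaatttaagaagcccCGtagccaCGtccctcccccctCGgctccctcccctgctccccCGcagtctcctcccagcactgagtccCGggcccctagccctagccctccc
Col24a1, chr3:145292222-145292471, plus strand: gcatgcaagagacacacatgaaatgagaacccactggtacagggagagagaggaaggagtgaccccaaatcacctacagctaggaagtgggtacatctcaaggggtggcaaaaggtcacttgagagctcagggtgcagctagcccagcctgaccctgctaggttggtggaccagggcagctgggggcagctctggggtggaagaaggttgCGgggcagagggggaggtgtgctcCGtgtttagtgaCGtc
Col8a2, chr4:126286544-126286793, plus strand: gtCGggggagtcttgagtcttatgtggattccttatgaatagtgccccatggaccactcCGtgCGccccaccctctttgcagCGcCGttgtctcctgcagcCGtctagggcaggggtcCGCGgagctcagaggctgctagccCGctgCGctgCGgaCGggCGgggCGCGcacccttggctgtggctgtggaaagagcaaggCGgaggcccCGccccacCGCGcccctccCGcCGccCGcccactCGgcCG
Col6a2, chr10:76623631-76623880, minus strand: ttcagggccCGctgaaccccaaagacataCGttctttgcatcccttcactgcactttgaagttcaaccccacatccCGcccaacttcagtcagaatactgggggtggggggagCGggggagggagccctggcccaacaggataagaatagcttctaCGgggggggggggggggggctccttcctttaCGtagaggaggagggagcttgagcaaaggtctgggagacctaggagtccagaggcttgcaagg
Col3a1, chr1:45311288-45311537, plus strand: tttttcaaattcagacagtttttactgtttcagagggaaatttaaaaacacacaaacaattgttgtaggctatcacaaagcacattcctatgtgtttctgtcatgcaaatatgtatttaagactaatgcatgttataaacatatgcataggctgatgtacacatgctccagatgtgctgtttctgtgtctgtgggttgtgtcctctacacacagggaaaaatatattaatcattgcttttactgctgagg
CpG dinucleotides numbered 28 in Col5a1, 24 in Col8a2, 11 in Col1a2, 6 in Col6a2, 3 in Col24a1 and 0 in Col3a1. The dense Col5a1 and Col8a2 promoters had opposite settings in control: H3K4me3 at 92.5-fold enrichment and a weak H3K27me3 peak at Col5a1, and H3K27me3 at 70.5-fold without H3K4me3 at Col8a2.

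Most collagen starts carried the Polycomb mark, and most of those carried H3K4me3 with it. Starts were taken as 1 kb either side of the annotated start (33 members) or, where the promoter table used here has no entry, of both annotated ends (Col1a1, Col2a1, Col4a3, Col5a2, Col9a3, Col12a1, Col14a1, Col22a1 and Col26a1). In control, 19 of 42 starts had both H3K4me3 and H3K27me3 (45.2%, exact 95% interval 29.8 to 61.3), against 17.0% of all genes. H3K4me3 without H3K27me3, the state of 44.9% of all genes, was found at 5 collagen starts (11.9%), namely Col5a2, Col5a3, Col11a1, Col9a3 and Col16a1. H3K27me3 without H3K4me3 was found at 6 and neither mark at 12. Col12a1, which has no listed start, was counted as H3K27me3 alone in both treatments. Its strongest H3K4me3 peak (70.5-fold in control and 92.7-fold in crotonate) lay outside of both end windows. That peak overlapped the H3K27me3 peak at the right annotated end, so the Col12a1 promoter may carry both marks. After crotonate, the counts were 20 with both (47.6%, 32.0 to 63.6), 6 with H3K4me3 alone, 6 with H3K27me3 alone and 10 with neither, while the share of all genes with both was 14.9%. In bulk chromatin, both marks at a start may lie on the same or on different cells and alleles. By class, the counts ran in opposite directions, a difference that was not tested. Among fibrillar genes, starts with both marks numbered 7 in control and 5 in crotonate, and those with H3K4me3 alone 3 and 5. Among the others, starts with both marks numbered 12 and 15, and those with H3K4me3 alone 2 and 1.

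**Figure D1:**
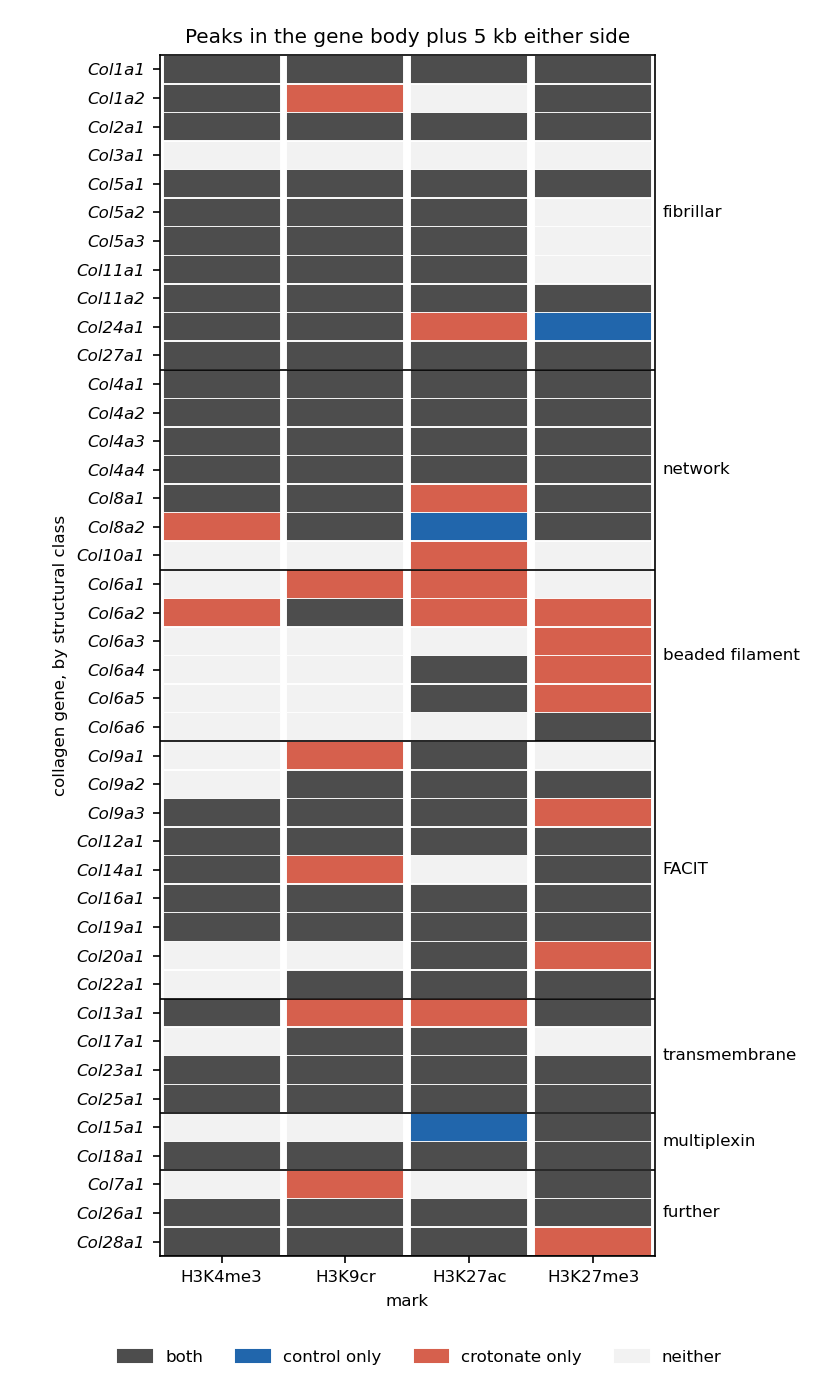
Peaks of each mark (columns) in the window of each of the 42 collagen genes (rows, by structural class), coloured by whether the control list, the crotonate list, both or neither had a peak. Col3a1 has no colour in any column, and the H3K27me3 column has 7 crotonate-only genes, all outside of the fibrillar block, and 1 control-only gene, Col24a1.

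H3K27me3 was gained by 7 collagen genes, none of them fibrillar. In whole windows, 27 collagen genes had H3K27me3 in control and 33 in crotonate. Col24a1 alone lost it, while 3.91% of all genes did. Gains were called at Col6a2, Col6a3, Col6a4, Col6a5, Col9a3, Col20a1 and Col28a1, so 7 of 42, while 4.94% of all genes gained the mark. Of the 15 collagen genes without H3K27me3 in control, these 7 make 46.7% (exact interval 21.3 to 73.4), against 7.61% of all such genes. Among bodies of at least 50 kb, 4 of 7 unmarked collagen genes gained it (57.1%, 18.4 to 90.1), against 9.06% of all unmarked genes of that length. All 7 gains were among the 31 other collagens, which went from 20 to 27 marked genes, while the 11 fibrillar genes went from 7 to 6. Of genes unmarked in control, 0 of 4 fibrillar (exact interval 0 to 60.2) and 7 of 11 others (63.6%, 30.8 to 89.1) gained it. These intervals overlap, and fibrillar bodies were shorter, with a median of 45.1 kb against 114 kb. The gained peaks were weak, with a highest fold enrichment of 5.18 among the 40 crotonate peaks of the family that had no control partner. The crotonate list was also the longer, and with equal numbers of peaks from both lists 4 of the 7 gains were left (Col6a2, Col6a3, Col6a5 and Col9a3). With peaks of -log10 q of at least 5, Col6a2 and Col6a5 alone were left of the 7. Col6a6, which had the mark in both full lists, was then also called a gain.

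The peaks were also counted one by one. Of 77 control H3K27me3 peaks in collagen windows, 13 had no crotonate peak overlapping them (16.9%, exact interval 9.31 to 27.1), against 25.6% of all control peaks. Of 96 crotonate peaks, 40 had no control partner (41.7%, 31.7 to 52.2), against 45.5% of all crotonate peaks, so the family as a whole was near the background. Fibrillar windows held 20 control peaks, 6 of them without a partner (30.0%, 11.9 to 54.3), and 14 crotonate peaks, of which 1 had none (7.14%, 0.181 to 33.9). The other windows held 57 control peaks, 7 without a partner (12.3%, 5.08 to 23.7), and 82 crotonate peaks, 39 without (47.6%, 36.4 to 58.9). These intervals treat neighbouring peaks as independent, which they are not, and with 1 library per treatment they cannot decide whether the classes differ. The 47.6% of the other windows was near the 45.5% of all crotonate peaks. The crotonate list was the longer. With equal numbers of peaks, 23.4% of control and 25% of crotonate peaks of the family had no partner.

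The length of sequence under H3K27me3 peaks also differed by class. Gaps between peaks are not counted, so a domain called as 1 peak in one list and as several in the other differs in length for that reason too. Lengths are summed over genes, so sequence in overlapping windows counts for each gene. The domain shared by Col4a1 and Col4a2 is such a case, and both genes are among those longer after crotonate. In fibrillar windows the length was 33.2 kb in control and 25.6 kb in crotonate. It was shorter after crotonate in each of the 6 fibrillar genes marked in both lists, with a median ratio of 0.806 (0.442 to 0.964). The drop was largest in Col27a1, from 6486 to 3664 bp, and Col5a1, from 3722 to 1645 bp. Col2a1 (10361 and 9984 bp) and Col11a2 (3574 and 3407 bp) differed by little. In the other windows the covered length was 113 kb in control and 133 kb in crotonate, longer in 15 of 20 genes marked in both, with a median ratio of 1.13. The gains were largest in Col13a1 (9428 and 13487 bp), Col22a1 (14259 and 17145 bp) and Col8a2 (16197 and 19078 bp), while Col12a1 ran the other way with 14929 and 10992 bp. Over all genes marked in both lists, 49.5% were longer and the median ratio was 1.0. Both counts moved with the settings. For fibrillar genes, 4 of 6 were shorter with 10 kb either side, and 4 of 5 with peaks at -log10 q of at least 5. For the other collagens the count turned within 1 kb of the start, where 4 of 18 genes were longer and 6 shorter. The length difference in their windows, crotonate minus control, was 19.8 kb as reported, 11.6 kb with equal numbers of peaks and 2.05 kb within 1 kb of the start.

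**Figure D2:**
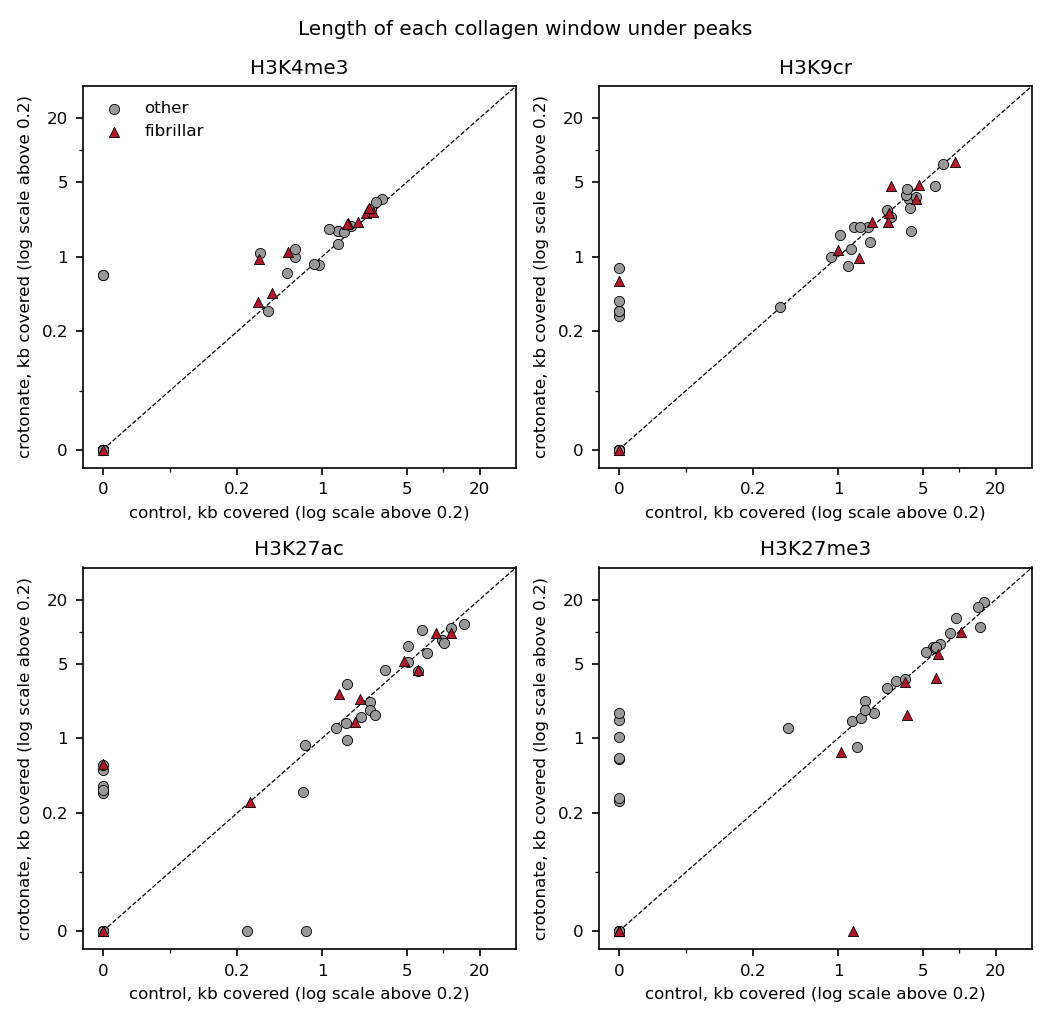
Length under peaks in each collagen window, control (horizontal) against crotonate (vertical), in kb on axes that are linear up to 0.2 kb and logarithmic above, with 1 panel per mark, fibrillar genes as red triangles and the others as grey circles. In the H3K27me3 panel every fibrillar triangle with a peak lies under the dashed line of equal length, while 15 of the 20 other genes marked in both lists lie above it.

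Among the fibrillar genes, the pair that makes type I collagen had contrasting chromatin. Col1a1 had all 4 marks in both lists. At its left annotated end the H3K4me3 peak had 11.2-fold enrichment in control and 19.1-fold in crotonate, and H3K27me3 flanked it with peaks of 8.13-fold and 14.4-fold in control and 5.08-fold and 10.4-fold in crotonate. Its strongest peaks lay in the flank past the right end, where H3K27ac reached 29.4-fold in control and 28.8-fold in crotonate. Its partner Col1a2 was sparsely marked. H3K4me3 at its start was a 527 bp peak of 4.85-fold in control and a 1109 bp peak of 14.2-fold in crotonate, and H3K9cr was called in crotonate alone, over 593 bp at 6.9-fold with a pileup of 28 fragments. Pairs of small H3K27me3 peaks stood at the Col1a2 start in each list, at 4.66-fold and 4.14-fold in control and 3.4-fold and 3.0-fold in crotonate. No H3K27ac peak was found in its window in either list. Col3a1, the chain of type III collagen in skin and vessel walls, had no peak of any mark in either treatment and was the single member of which this is true.

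Col2a1, the cartilage collagen, carried the longest Polycomb domain of the fibrillar genes. Its H3K27me3 domain spanned 8714 bp at 110-fold in control and 8570 bp at 35.7-fold in crotonate, in both lists at the right annotated end. Inside that domain H3K4me3 peaks had 15.1-fold and 6.64-fold in control and 17.9-fold and 6.03-fold in crotonate. H3K27ac was called at an annotated end of Col2a1 in crotonate alone, as a pair of peaks of 2.99-fold and 3.81-fold at the far end from that domain, and a body peak was found in both lists (6.94-fold and 8.37-fold). Fold values from different lists are set side by side here and show no change by themselves, because each depends on the background of its own library.

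The minor fibrillar collagens included the most strongly marked promoters of the family. Col11a1, which nucleates thin fibrils with type II collagen, had the strongest collagen H3K4me3 peak in control, 123-fold over 2657 bp, and 113-fold over 2642 bp in crotonate. Col27a1 had H3K4me3 at 107-fold in control and 123-fold in crotonate, with H3K9cr at 113-fold and 75.9-fold, the highest collagen start values in both H3K9cr lists. Upstream of that start stood an H3K27me3 domain, 3946 bp at 64.2-fold in control and 3395 bp at 25.1-fold in crotonate. A further control domain of 2540 bp at 6.23-fold, from 0.218 to 2.757 kb past the start, was met in crotonate by a peak of 269 bp at 3.0-fold. Col5a1, which sets the diameter of type I fibrils, had H3K4me3 at 92.5-fold and 89.8-fold and H3K27ac at 19.9-fold and 10.9-fold at its start. There an H3K27me3 peak of 981 bp (3.11-fold, pileup 14) was listed in control alone. Col5a2, its partner chain, had no H3K27me3 in either list, H3K4me3 at 76.1-fold and 88.8-fold, and H3K9cr at 52.1-fold and 28.8-fold. Col24a1, a fibrillar chain of developing bone, lost a broad but weak H3K27me3 peak at its start, 1328 bp at 2.86-fold with a pileup of 13. Its H3K4me3 peak was 301 bp at 3.32-fold in control and 955 bp at 7.57-fold in crotonate, and its H3K9cr peak 5.01-fold and 9.13-fold. The peaks lost at the Col5a1 and Col24a1 starts were weak ones of the control list, at percentiles 18.7 and 8.95 of -log10 q. When peaks were limited to -log10 q of at least 5, the lost gene was Col1a2 in place of Col24a1.

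**Figure D3:**
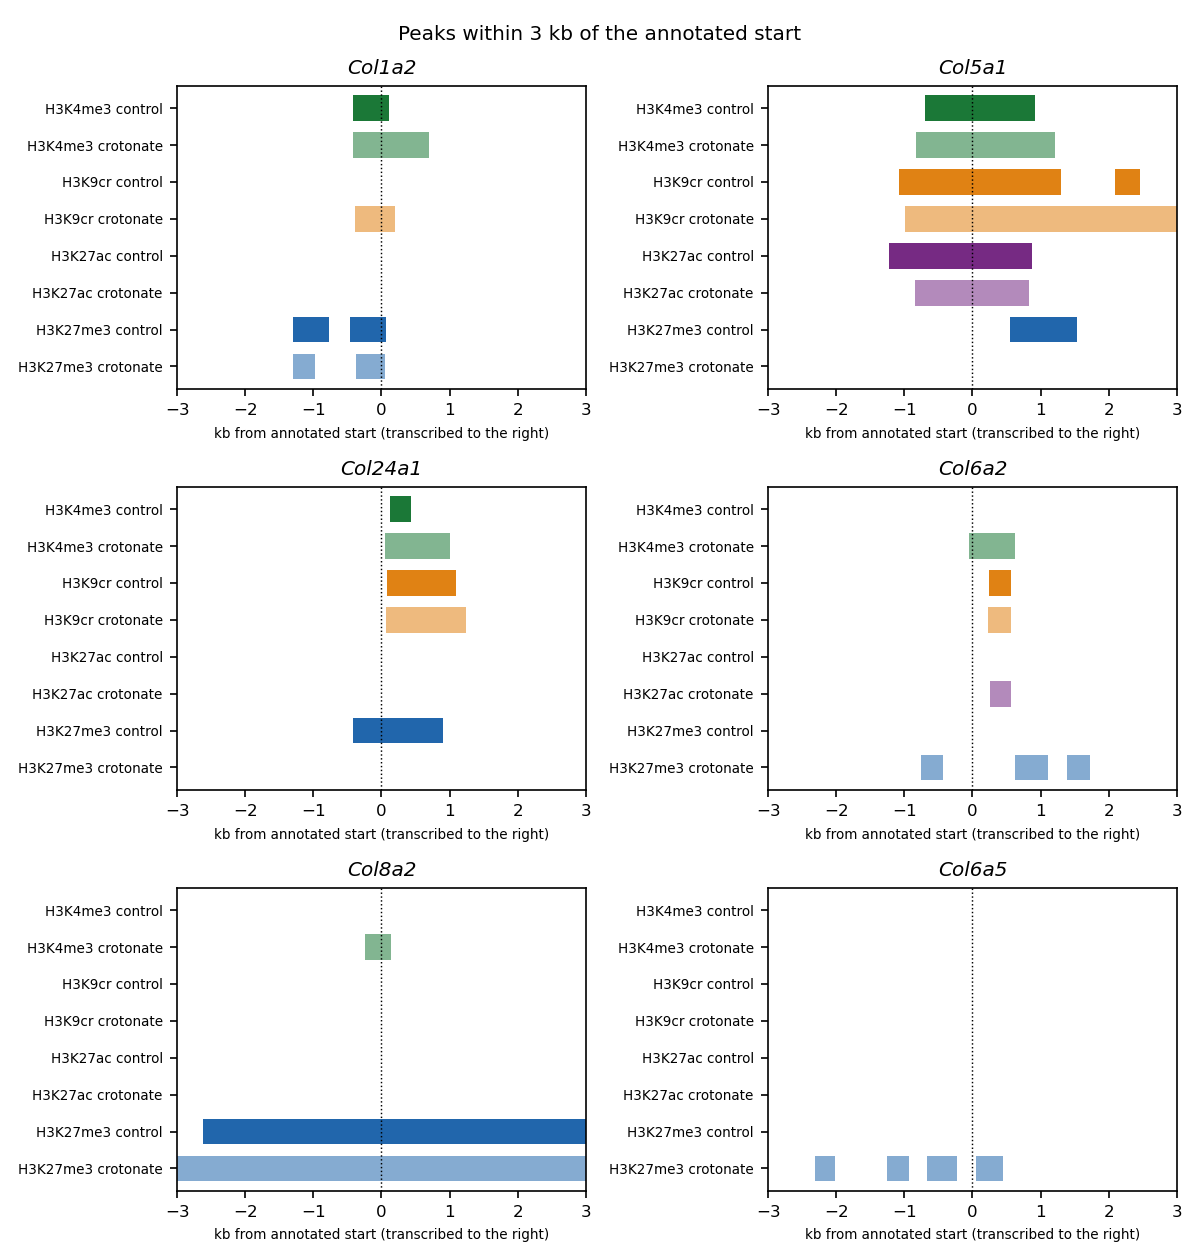
Peaks within 3 kb of the annotated start of 6 collagen genes with a changed mark, as bars in kb along the direction of transcription, 1 row per mark and treatment, with bars past 3 kb clipped at the edge. Control H3K27me3 bars at Col5a1 and Col24a1 have no crotonate bar, those at Col6a2 and Col6a5 are in crotonate alone, and a short crotonate H3K4me3 bar at Col8a2 lies within H3K27me3 bars of both treatments.

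Network collagens kept their marks apart from a few small peaks. Col4a1 and Col4a2, the ubiquitous basement membrane chains transcribed from a shared start region in opposite directions, had all 4 marks in both lists. Their common H3K27me3 domain was 6055 bp at 51.0-fold in control and 7223 bp at 23.5-fold in crotonate, and their common H3K4me3 peak 1364 bp at 38.0-fold and 1729 bp at 66.6-fold. Col8a2, a short-chain collagen of the corneal basement membrane, lay in the strongest Polycomb chromatin of the family. Its body domain had 128-fold enrichment in control and 89.4-fold in crotonate, and the domain over its start 70.5-fold (7048 bp) and 53.4-fold (8042 bp). An H3K4me3 peak of 384 bp at 5.68-fold was called at that start in crotonate alone, so Col8a2 moved from H3K27me3 alone to both marks. A Col8a2 body peak of H3K27ac, 241 bp at 3.41-fold, was in control alone. Its partner Col8a1 gained H3K27ac at the start (359 bp at 2.99-fold) beside H3K4me3 of 6.41-fold in control and 21.7-fold in crotonate. Col10a1, the collagen of hypertrophic cartilage, had a single peak, H3K27ac at 4.44-fold in crotonate, which lay in its flank and within the body of the neighbour Nt5dc1.

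The beaded filament collagens, all chains of type VI collagen, accounted for 4 of the 7 H3K27me3 gains. In control, Col6a6 was the only gene of 6 with that mark, over 0.388 kb in all, and in crotonate 5 of 6 had it, over 6.12 kb. Col6a5 gained 5 separate peaks, 4 of them from about the start to 2.2 kb before it, the strongest 447 bp at 4.96-fold. Col6a6 had a start peak of 388 bp at 3.52-fold in control and 1248 bp at 5.16-fold in crotonate. Col6a3 gained 3 body peaks of at most 3.4-fold and Col6a4 gained 2 of 3.27-fold. Col6a2 changed most: crotonate alone had H3K4me3 over 675 bp at 10.8-fold, H3K27ac over 308 bp at 3.53-fold and H3K27me3 in 4 peaks, 3 of them within 2 kb of the start, the strongest 482 bp at 4.91-fold. H3K9cr at that start was called in both lists, at 5.06-fold and 8.56-fold. Col6a1, the neighbouring and partner chain, gained H3K9cr (276 bp at 3.33-fold) and H3K27ac (563 bp at 4.35-fold) at its start and had no H3K4me3 or H3K27me3 in either list. Type VI genes were thus sparsely marked in control, and no peak they gained had more than 10.8-fold enrichment.

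Among FACIT collagens, Col14a1, a fibril-bound chain of tendon and skin, had the strongest H3K27me3 peak at any collagen start in control, 122-fold over 4603 bp, with 62.1-fold over 4604 bp in crotonate. It gained H3K9cr there (383 bp at 5.23-fold). Its H3K4me3 covered 307 bp in control and 1077 bp in crotonate, the largest difference toward longer in the family. Col9a3, a cartilage collagen that also coats type II fibrils, gained an H3K27me3 peak of 649 bp at 3.82-fold at the end of the gene where H3K4me3 stood. Its H3K9cr covered 4030 bp in control and 1738 bp in crotonate, the largest fall of the family, and its H3K4me3 938 and 831 bp. Col9a1 gained H3K9cr at 2 body sites of at most 3.85-fold, and Col20a1 gained a single H3K27me3 body peak of 2.7-fold. Col20a1 and Col19a1 are entries of opposite sign for H3K27ac at the start, with a gain at Col20a1 through the edge of a peak shared by both lists and a loss at Col19a1 of 558 bp at 3.65-fold. Col16a1 and Col22a1 had long H3K27ac stretches in the body. Those of Col22a1 covered 15026 bp in control and 11921 bp in crotonate, while its H3K27me3 covered 14259 and 17145 bp. In Col12a1 the H3K27me3 length was 14929 bp in control and 10992 bp in crotonate, with H3K4me3 at 70.5-fold and 92.7-fold inside of the annotated body.

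Col13a1, a transmembrane collagen of the neuromuscular junction, carried an H3K27me3 domain at its start of 5623 bp at 87.8-fold in control and 8880 bp at 69.0-fold in crotonate. In its body H3K9cr (307 bp at 3.09-fold) and H3K27ac (330 bp at 3.53-fold) were called in crotonate alone. Col25a1, the brain collagen found with amyloid plaques, had H3K4me3 at 94.8-fold and 101-fold, the third strongest collagen start in both lists. Col17a1, of the epidermal hemidesmosome, had H3K27ac over 5121 bp in control and 7362 bp in crotonate. Of the multiplexins, Col15a1 had H3K27me3 at 68.8-fold and 54.8-fold over its start and lost 2 H3K27ac body peaks of 4.13-fold and 4.38-fold. Col18a1, the precursor of endostatin, had H3K4me3 at 66.4-fold and 85.2-fold, and its H3K27ac covered 6700 bp in control and 10345 bp in crotonate, the largest difference toward longer in the family for that mark. Col7a1, which anchors the skin basement membrane, gained H3K9cr (310 bp at 3.04-fold) within an H3K27me3 peak of 11.4-fold in control and 12.3-fold in crotonate. Col28a1 gained an H3K27me3 body peak of 278 bp at 3.02-fold. Col26a1 had H3K4me3 over 1141 bp in control and 1826 bp in crotonate, beside H3K27me3 of 45.3-fold and 25.6-fold.

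H3K4me3 in the family was weak and slightly more extended after crotonate. Collagen peaks of this mark had a median fold enrichment of 15.1 in the control list, where all peaks had 106, and 16.8 in the crotonate list, where all had 94.4. Marked windows numbered 26 in control and 28 in crotonate. None was lost, where 0.252% of all genes lost it, and Col6a2 and Col8a2 gained the mark (4.76%, exact interval 0.582 to 16.2), while 1.62% of all genes did. These 2 are 12.5% (1.55 to 38.3) of the collagens without H3K4me3 in control, against 5.12% of all such genes. In long bodies the gains were 0 of 7 (exact interval 0 to 41.0), against 9.23%. The covered length, with the peak shared by Col4a1 and Col4a2 counted for each, was 35.3 kb in control and 44.3 kb in crotonate. It was longer after crotonate in 21 of the 26 genes marked in both lists (80.8%, median ratio 1.17), against 69.2% of all genes (median ratio 1.03). By class, 9 of 10 fibrillar and 12 of 16 other collagens were longer. The other 5 were shorter by small lengths, the most in Col9a3 (938 and 831 bp), then Col28a1 (360 and 312 bp) and Col19a1 (1357 and 1326 bp). Peak by peak, 0 of 31 control peaks had no crotonate partner, where 2.81% of all did, and 4 of 34 crotonate peaks had no control partner (11.8%, 3.3 to 27.5), where 6.94% of all did. Marks and lengths of H3K4me3 and H3K27me3 carry the difference in vendor label given above.

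Crotonylation of H3K9, for which crotonyl-CoA is the donor, was gained at 6 collagen genes and lost at none. It was found at 28 genes in control and 34 in crotonate. Collagen peaks of this mark had a median fold enrichment of 10.3 in control and 6.66 in crotonate, where all peaks had 14.6 and 9.27. Whether the level of crotonylation rose at the genes with gained peaks was not tested. The gaining genes were Col1a2, Col6a1, Col7a1, Col9a1, Col13a1 and Col14a1 (14.3%, exact interval 5.43 to 28.5), while 1.89% of all genes gained and 0.649% lost the mark. Among the 14 collagen genes without H3K9cr in control the gains make 42.9% (17.7 to 71.1), against 6.51% of all such genes. In long bodies the figures were 3 of 8 (37.5%, 8.52 to 75.5) and 16.0%. The strongest gained peak was that of Col1a2, at 6.9-fold, and with peaks of -log10 q of at least 5 the gains were Col1a2 and Col14a1 alone. Fibrillar genes gave 1 of the 6. Of 67 control peaks 5 had no partner (7.46%, 2.47 to 16.6), against 15.1% of all, and of 81 crotonate peaks 18 had none (22.2%, 13.7 to 32.8), against 15.5% of all. The covered length was 84.6 kb in control and 81.2 kb in crotonate, with 14 genes longer and 14 shorter. It was shorter after crotonate in Col9a3, as given above, in Col12a1 (6343 and 4665 bp) and in Col27a1 (9231 and 7772 bp), and longer in Col18a1 (3700 and 4316 bp). The largest difference toward longer was in Col5a1, 2749 and 4570 bp, where a control peak at the start and a small peak past it were met by 1 crotonate peak of 4221 bp.

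H3K27ac was found at 30 collagen genes in control and 34 in crotonate. Gains were called at Col6a1, Col6a2, Col8a1, Col10a1, Col13a1 and Col24a1 (14.3%, exact interval 5.43 to 28.5), while 2.57% of all genes gained, and losses at Col8a2 and Col15a1 (4.76%, 0.582 to 16.2), while 1.76% of all genes lost it. The 6 gains make 50.0% (21.1 to 78.9) of the collagen genes without the mark in control, against 8.41% of all such genes. In long bodies the figures were 50.0% (3 of 6, exact interval 11.8 to 88.2) and 21.0%, so the interval includes the share of all genes. With peaks of -log10 q of at least 5, the gains were Col6a1, Col9a1 and Col10a1, and the losses Col6a4 and Col15a1. The peaks in the 6 genes that gained the mark reached 4.44-fold at most, at Col10a1. The fibrillar gain, Col24a1, rested on 2 body peaks of 3.26-fold and 4.08-fold. Covered length was 136 kb in control and 131 kb in crotonate, shorter in 18 of the 28 genes marked in both (35.7% longer), and over all genes marked in both 30.0% were longer, a share near that of the collagens. After Col22a1, the largest differences toward shorter were in Col25a1 (10103 and 7880 bp) and Col26a1 (6175 and 4243 bp), while Col4a1 had 1600 and 3209 bp. Of 108 control peaks 22 had no partner (20.4%, 13.2 to 29.2), against 25.3% of all, and of 150 crotonate peaks 55 had none (36.7%, 29.0 to 44.9), against 30.4%. The strongest starts were Col5a1 (19.9-fold), Col27a1 (16.3-fold) and Col1a1 (15.1-fold, at its right annotated end) in control and Col16a1 (13.0-fold), Col27a1 (12.5-fold) and Col5a1 (10.9-fold) in crotonate. Either annotated end counted where no start was listed. The right end of Col1a1 is opposite the H3K4me3 peak described above, so it may not be the start.

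Changes at the starts alone were fewer. H3K4me3 was at 24 starts in control and 26 in crotonate, with gains at Col6a2 and Col8a2, where 1.5% of all genes gained and 0.179% lost it. H3K9cr was at 24 and 28, gained at Col1a2, Col6a1, Col7a1 and Col14a1, where 1.78% of all genes gained and 0.479% lost it. H3K27ac was at 17 and 21, gained at Col2a1, Col6a1, Col6a2, Col8a1 and Col20a1, where 1.88% of all genes gained, and lost at Col19a1, where 1.76% lost. For Col2a1 both annotated ends stood in for the start. Its H3K27ac gain lay at the end far from its H3K4me3, so it may not be at the start. H3K27me3 was at 25 and 26, lost at Col5a1 and Col24a1, where 3.93% of all genes lost, and gained at Col6a2, Col6a5 and Col9a3, where 1.8% gained. For that last mark the collagen share was 59.5% in control (exact interval 43.3 to 74.4) and 61.9% in crotonate (45.6 to 76.4). These are too close to give a direction. The share of all starts was 21.6% in control and 19.5% in crotonate. Of starts marked with H3K27me3 in control, 8.0% of the collagen starts (exact interval 0.984 to 26.0) and 18.2% of all starts lost it.

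The sequence before the start went with the state of the promoter. Of the 33 members with a printed start in RefSeq, the 17 with H3K4me3 in control had a median of 15 CpG in 250 bases (range 3 to 31) and the 16 without it 5 (0 to 24). The same medians over all genes were 17 and 2. Starts with both H3K4me3 and H3K27me3 had a median of 14.5, those with H3K27me3 alone 9 and those with neither 3. Col4a1 had the most, with 31, and Col3a1, without any mark, had 0. Col24a1, with 3, was the poorest promoter to carry H3K4me3, and its weak peak had 3.32-fold enrichment in control. Of the 2 promoters that gained H3K4me3, Col8a2 had 24 CpG, the highest count among those that lacked it in control, and Col6a2 had 6. Short motifs were searched by their letters on both strands of the same 250 bases. The TATA box letters TATAAA were in 5 of 33 collagen promoters, among them Col3a1 (15.2%, against 12.5% of all 16456 promoters). The CCAAT box letters were in 11, among them Col1a2 (33.3%, against 36.3%). The core of the box bound by Sp1 factors, GGGCGG, was in 19 (57.6%, against 43.6%). Matches of letters are a description and are not measured binding sites.

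**Figure D4:**
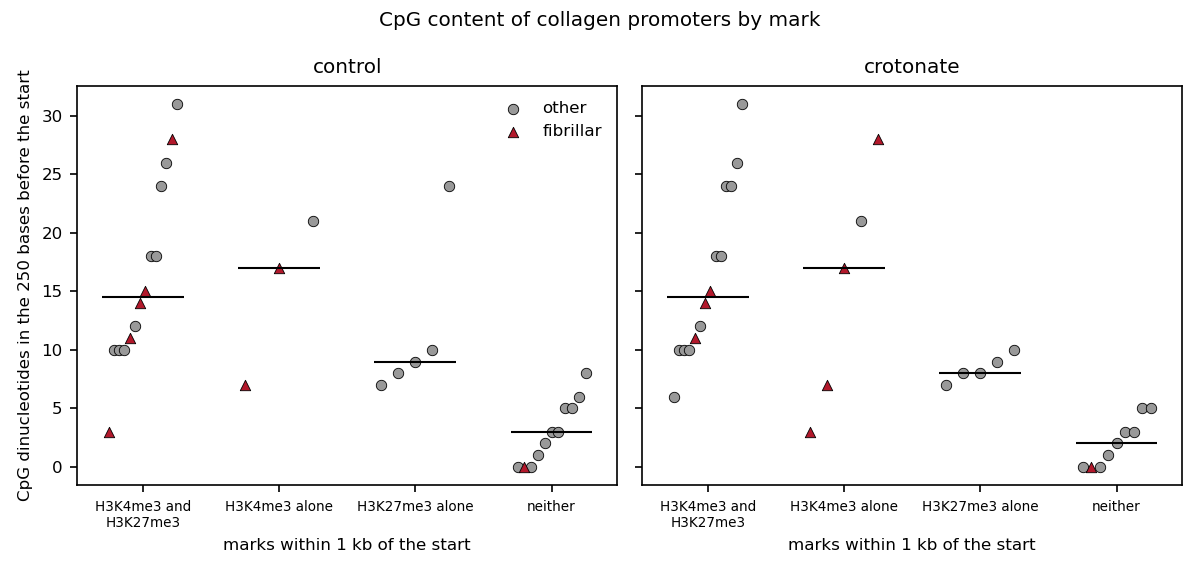
CpG dinucleotides in the 250 bases before the annotated start of 33 collagen genes (vertical axis), by the marks within 1 kb of that start in control (left) and crotonate (right), fibrillar genes as red triangles, others as grey circles, bars at the median. Starts with neither mark lie at 8 CpG or fewer in control, and the fibrillar Col5a1 (28) and Col24a1 (3) stand under H3K4me3 alone on the right.

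The genes that process and bind collagen gave few changes. None gained H3K27me3 at the start, where 1.8% of all genes did, so few gains could be looked for in lists of this size. Of 32 processing genes, 28 had H3K4me3 at the start in both treatments, where 24 and 26 of the 42 collagens had it. H3K27me3 was at 15 of these starts in control and 12 in crotonate. The losses were at Adamts14, a procollagen N-proteinase (307 bp at 2.98-fold), Colgalt2, a collagen galactosyltransferase (432 bp at 4.37-fold), and Loxl3, a crosslinking oxidase. At Loxl3 the control peak of 2135 bp was shared with the crotonate list, whose peak did not reach the start. Lox, which crosslinks fibrils, gained H3K9cr at the start (658 bp at 5.95-fold) within H3K27me3 of 119-fold in control and 80.4-fold in crotonate. Loxl1 gained H3K27ac (357 bp at 2.98-fold). Over all genes, 1.78% gained H3K9cr and 1.88% gained H3K27ac at the start. Of 10 receptors, 4 had H3K27me3 in control and 2 in crotonate, the losses being Itga2, an integrin chain (565 bp at 3.88-fold), and Mrc2, which takes up collagen (886 bp at 3.79-fold). The losses are 3 of 15 and 2 of 4 marked starts, the first close to the 18.2% of all genes.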

How the data were processed

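Native ChIP-seq peak lists for 4 histone marks in control and crotonate-treated cells were analysed (8 lists, each from 1 library), and the 2 inputs were not used here. The submitters' processing notes name Bowtie2 2.4.1, MACS2 2.2.7.1 and the build GRCm38. How peaks were called, how duplicates were treated and whether inputs served as background was not given. Each peak has a deposited pileup, the coverage signal at its summit. Its fold enrichment over local background is a ratio, per the file headers. The file also has -log10 values of p and q that the authors' caller gave the summit. These peak values are the authors', and were used to describe and rank peaks within a list.

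Windows were the RefSeq gene body (GRCm38.p6) plus 5 kb, or 1 kb either side of the start, and overlap was at least 1 bp. Covered length is the base pairs under merged peaks in the window of a gene, and totals add up genes, also where windows overlap. Read depth is unknown, and a stand-in, the lowest background a peak implies, ranged from 2.67 to 3.74 over the lists. Intervals are exact (Clopper-Pearson, 95%) and cover counting error only. PCR copies were not told apart by molecular identifiers. Interval code was tested on simulated data. Python 3.11.15, pandas 2.3.3, numpy 2.4.6 and scipy 1.17.1 were used.

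Members and gene lists were chosen with earlier results of these data known. Genes named are members with a mark in 1 treatment only, the 3 strongest starts of each list, the 3 largest rises and falls in covered length, members without any peak, 6 textbook members, and genes of the processing, receptor and cell type lists that changed at the start. The alternatives tried were other windows, a stricter q-value, equal list lengths, other overlaps, merged peaks and a narrower fibrillar class. Of the neuronal markers, 5 of 6 lie on the chromosomes used, and H3K27ac was lost at Tubb3 and gained at Neurod6. H3K27me3 was lost at Sox1 among progenitor markers and gained at Rgs5 among mural ones, H3K4me3 was lost at Pdgfrb, and H3K9cr was lost at Cldn5. Single results for some listed genes are not reported here.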

Additional observations from a re-analysis of the deposited data

How the results depend on the processing

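Each of 28 results was recomputed under up to 8 alternatives, giving 180 values, of which 128 stayed within 1.5 times the reported count or within its interval, 50 moved and 2 changed sign. No paired analysis was possible because each mark and treatment had 1 library. With 1 kb either side of the start, covered length (crotonate minus control) changed sign, to 0.043 kb for H3K27ac and -1.5 kb for H3K27me3, and was -0.086 kb for H3K9cr. There, H3K27ac was lost at 1 gene, H3K27me3 was lost at 2 and gained at 3, gains minus losses were 3 for H3K9cr and 3 for H3K27me3 in other collagens and -2 for H3K27me3 in fibrillar ones, 0% of H3K9cr and 5.88% of H3K27ac peaks were lost, and 20% of H3K27ac and 20% of H3K27me3 peaks were gained. With -log10 q of at least 5, gained genes were 4 for H3K4me3, 2 for H3K9cr, 3 for H3K27ac and 3 for H3K27me3. Gains minus losses were then 2 (H3K4me3) and 0 (H3K27ac) in fibrillar and 1 (H3K9cr), 1 (H3K27ac) and 3 (H3K27me3) in other collagens, gained peaks 19.5% for H3K27ac and 25% for H3K27me3, and length differences -6.84 kb (H3K9cr), -15.2 kb (H3K27ac) and 7.85 kb (H3K27me3). With equal numbers of peaks, H3K27me3 was gained at 4 genes, all among other collagens (gains minus losses 4), 25% of its peaks were gained, and length differences were -5.44 kb (H3K9cr), -10.2 kb (H3K27ac) and 2.42 kb (H3K27me3). Without flanks, H3K4me3 was gained at 4 genes (gains minus losses 4 in other collagens), gains minus losses for H3K27ac were 1 in other collagens, and the H3K9cr length difference was -1.74 kb. With 10 kb either side, H3K4me3 was gained at 1 gene (1 in other collagens), H3K27ac was lost at 1, and fibrillar gains minus losses for H3K27ac were 2. Without Col24a1 and Col27a1 the fibrillar values were 0 for H3K27ac and 0 for H3K27me3. When sharing needed 50% of both peaks, 19.4%, 41.7% and 48.1% of H3K9cr, H3K27ac and H3K27me3 peaks were lost and 33.3%, 58% and 58.3% gained. When peaks within 1 kb counted as shared, 13% of H3K27ac peaks were lost, and 28.7% of H3K27ac and 28.1% of H3K27me3 peaks were gained. Merging peaks within 3 kb, and requiring an unshared peak for a changed gene (added after the data were seen), moved none of the values they apply to. The cause of these shifts was not tested beyond the fewer peaks or shorter windows used. Limits are 1 library per group, unknown depth, vendor labels that differ with treatment, and weak unshared peaks.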

Other observations

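Col4a5 and Col4a6, basement membrane collagens of chromosome X, lie outside of the rule. They share a start region with H3K4me3 at 63.1-fold in control and 69.2-fold in crotonate and H3K9cr at 52.3-fold and 29.7-fold. Neither had H3K27me3 in either list, whereas Col4a1, Col4a2, Col4a3 and Col4a4 had it in both. The strongest H3K27ac peak of the windows lay at the start of the neighbour Phykpl beside Col23a1 (40.2-fold and 55.2-fold). The next, named after its values were seen, was in the body of Col5a3, 21.2 kb past the start. It spanned 4914 bp at 37.8-fold in control and 3756 bp at 37.7-fold in crotonate, at percentiles 98.6 and 99.1 of the lists. H3K9cr stood there at 38.2-fold and 12.4-fold, and the H3K4me3 peak at the Col5a3 start had 5.88-fold and 9.04-fold.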
